A study of Mus musculus with 12 samples.

Results

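The genes described here are the mouse solute carriers of 8 families that carry sugars, amino acids and related small solutes across cell membranes. They are the 92 of 27179 genes in the deposited count table whose symbols belong to the numbered genes of Slc1 (7 genes), Slc2 (12), Slc5 (11), Slc6 (19), Slc7 (15), Slc16 (14), Slc38 (11) and Slc43 (3). The rule reads symbols and no measured value, but it was chosen with earlier results of these data known. It leaves out 7 genes whose symbols carry a further letter or suffix, and it takes in relatives that carry neither glucose nor amino acids: iodide, choline, vitamins, monoamines, taurine, creatine, myo-inositol, purines and lactate.

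RNA was sequenced from mammary epithelium of female mice, in 4 groups of 3 biological replicates. Controls carried floxed Foxp1 alleles, Foxp1(fl/fl), and knockouts carried MMTV-cre with the same floxed alleles, MMTV-cre/Foxp1(fl/fl). Basal and luminal epithelial cells were taken from each genotype, and all 4 groups therefore share the floxed alleles. Foxp1 is a forkhead transcription factor. The MMTV promoter that drives Cre is known to be active in mammary epithelium and in salivary gland, and whether both cell types were recombined in every cell is not given in the sources used here, nor is the age of the mice.

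Epithelial cells take up glucose by facilitated carriers of the Slc2 family and by sodium-coupled carriers of the Slc5 family. Amino acids enter through sodium-coupled carriers, through cationic carriers, and through exchangers whose light chains (Slc7) are held at the membrane by a heavy chain, Slc3a2. In the mammary gland these carriers supply the precursors of lactose and milk protein, and several are known to respond to amino acid shortage through the factor ATF4.

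Total counts were between 9769361 and 11133908 per library, except for 15449513 in luminal knockout replicate 3. The transporter genes together took 0.439% to 0.592% of the counts in basal libraries and 0.264% to 0.423% in luminal libraries. Foxp1 itself had 160 to 221 CPM (counts scaled to library size with TMM factors) in basal controls, 193 to 284 in basal knockouts, 62.0 to 82.3 in luminal controls and 150 to 161 in luminal knockouts. Its luminal counts were higher in the knockouts (log2 fold change 1.07, SE 0.19, adjusted p = 0.0161), which goes against the label, although a count per gene includes reads outside the deleted exons. The libraries are therefore called knockout-labelled, and each direction below rests on that label. Some libraries stood apart. The smooth muscle actin gene Acta2 was low in replicate 3 of both basal groups: 1242 CPM beside 4845 and 5180 for controls, and 1702 CPM beside 3272 and 3598 for knockouts. Luminal control replicate 2 differed most from the libraries of its own group (chi-square per degree of freedom 134 and 137) and had summed salivary gland genes at 11460 CPM against 71830 and 123800. Summed basal and myoepithelial markers (10 genes) were 18030 to 24750 CPM in basal and 151 to 1069 CPM in luminal libraries, and summed luminal markers (12 genes) were 1277 to 2630 and 10690 to 21880 CPM.

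Of the 92 genes, 68 passed the filter on low counts and were tested; 24 did not. Among those 24, Slc5a12, Slc7a12 and Slc7a15 had 0 counts in all 12 libraries, and the highest single level was 4.25 CPM, for Slc16a14. Tests were edgeR quasi-likelihood F tests over all 14903 genes that passed, and a gene is called at a Benjamini-Hochberg adjusted p under 0.05. Levels of different genes are compared only as RPKM, which is CPM per kilobase of the deposited gene length, and levels of 1 gene between groups are given as CPM. The libraries hold RNA of whole cell fractions, so a change in the number of cells of a type cannot be told apart from a change in RNA per cell.

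Between the cell types of the controls, 39 of the 68 tested transporter genes were called, 14 higher in luminal and 25 higher in basal cells. That is 57.4% of them, against 33.2% of all tested genes called in the same comparison (16.3% higher in luminal and 16.8% higher in basal cells). Counts by family or class below are to be read beside these shares. Their median log2 fold change, luminal over basal, was -1.02 against 0.04 for all tested genes, and the 2 groups did not overlap for 17 genes higher in luminal (22.9% of all tested genes) and 27 higher in basal cells (21.2% of all; 44.1% in either direction). At an unadjusted p under 0.05 there were 46 members, where 43.3% of all tested genes passed. Libraries of the same replicate number deviated together in this comparison. With replicate number as a block, 47 transporter genes were called, and the share of all tested genes called rose to 43.8%. Salivary gland genes summed to 1023 to 4222 CPM in basal and 11460 to 123800 in luminal controls, with 9 of 11 tested called higher. Fibroblast markers summed to 509 to 663 against 77.3 to 412 CPM (3 called lower in luminal, 1 higher). Pericyte markers summed to 36.2 to 53.0 against 4.02 to 10.5 (4 lower). Macrophage and dendritic cell markers summed to 68.6 to 85.7 against 24.4 to 56.9 CPM (1 lower). T and B cell markers summed to 9.74 to 11.3 against 2.43 to 3.70 CPM (1 lower). The sum of nerve and Schwann cell markers was higher in luminal controls, at 269 to 305 against 156 to 197 CPM, but 1 of 4 tested was called higher and 1 lower. Endothelial, adipocyte and red blood cell lists each had 1 gene called higher in luminal controls and none lower. The part of these cells in the calls between cell types was not tested.

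**Figure D1:**
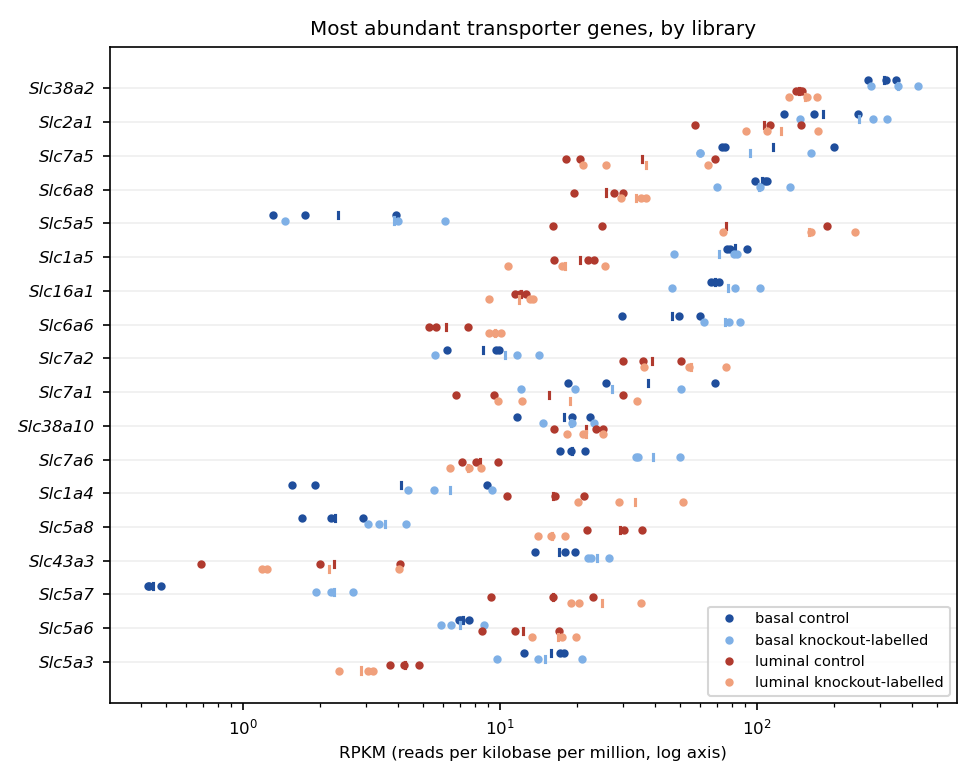
RPKM (log axis) of the genes that rank among the 12 most abundant transporters of at least 1 group; points are single libraries, coloured by group, and ticks are means of 3 libraries. Slc38a2 and Slc2a1 lead in basal cells, while Slc5a5, Slc5a7 and Slc5a8 lie further right in luminal than in basal libraries.

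Per length, the sodium-coupled glutamine and alanine carrier Slc38a2 (SNAT2) was the most abundant transporter transcript of both control groups, at 312 ± 38.4 RPKM (SD, n = 3) in basal and 146 ± 3.82 in luminal cells. Slc2a1 (GLUT1), the main glucose carrier of mammary epithelium, came next at 181 ± 61.6 RPKM in basal and 106 ± 45.6 in luminal controls. The third place differed by cell type. In basal controls it was the large neutral amino acid exchanger Slc7a5 (LAT1) at 116 ± 72.2 RPKM, followed by the creatine carrier Slc6a8 at 105 ± 6.0, a pair whose spreads overlap. In luminal controls it was the sodium-iodide symporter Slc5a5 at 76.0 ± 96.3 RPKM, whose SD exceeds its mean. In luminal knockout-labelled libraries Slc5a5 had the highest mean, 159 ± 83.3 RPKM, beside Slc38a2 at 153 ± 19.0, which is within the spread.

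Summed by class, sodium-coupled neutral amino acid carriers of Slc38 made up 29.1% ± 6.27 of the summed transporter RPKM in basal controls and 28.5% ± 7.73 in luminal controls (SD, n = 3). Facilitated sugar carriers made up 17.5% ± 2.59 and 16.1% ± 3.44. The class that differed most was the 5 sodium-coupled carriers of iodide, choline, vitamins and monocarboxylates, at 1.03% ± 0.03 in basal and 17.8% ± 6.40 in luminal controls. Carriers of neurotransmitters and osmolytes took 13.8% ± 2.43 in basal and 5.22% ± 0.46 in luminal controls.

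Of 9 tested facilitated sugar carriers 3 were called higher in basal and 1 in luminal cells, the low-level fructose carrier Slc2a5 (log2 fold change 2.70). Slc2a4 (GLUT4), the insulin-responsive glucose carrier, was at 53.6, 54.2 and 12.7 CPM in basal and 1.96, 1.66 and 2.31 CPM in luminal controls. The groups did not overlap, and the low basal value is that of replicate 3, the control low in Acta2 (log2 fold change -4.34, SE 0.56, adjusted p = 0.000153). Slc2a3 (GLUT3), a high-affinity glucose carrier, had 12.5 to 21.4 CPM in basal and 0.65 to 2.01 CPM in luminal controls (log2 fold change -3.99), and Slc2a13, a proton-coupled myo-inositol carrier, had 9.61 to 21.6 and 0.56 to 1.78 CPM (-3.95). Slc2a1 had 327 to 638 CPM in basal and 148 to 380 in luminal controls; it was not called (log2 fold change -0.77, SE 0.41, adjusted p = 0.171), but it was with the replicate block (-0.82, adjusted p = 0.00374). The intracellular carrier Slc2a8 (10.2, 9.74 and 5.08 against 11.1, 10.2 and 8.14 CPM) and the urate carrier Slc2a9 (3.04 to 6.19 against 6.84 to 9.06 CPM) were not called.

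Of 6 sodium-coupled sugar and inositol carriers 1 was called higher in luminal and 2 in basal cells. Slc5a9 (SGLT4) was at 0.31, 0.89 and 6.28 CPM in basal and 23.0, 28.2 and 18.3 CPM in luminal controls (log2 fold change 3.20, SE 0.83, adjusted p = 0.0118). Slc5a1 (SGLT1) was at 1.14, 1.34 and 18.9 CPM in basal and 32.7, 38.8 and 33.3 CPM in luminal controls, with no overlap and no call (2.29, adjusted p = 0.0693). In both genes the one raised basal value was that of replicate 3. Slc5a3, a sodium-coupled myo-inositol carrier, was higher in basal cells, at 135 to 193 against 40.8 to 52.6 CPM (-1.89, adjusted p = 0.000276).

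All 4 tested sodium-coupled carriers of other solutes were called higher in luminal cells. Slc5a7, the high-affinity choline carrier, was at 2.49, 2.23 and 2.22 CPM in basal and 83.4, 119 and 47.6 CPM in luminal controls (log2 fold change 5.17, SE 0.39, adjusted p = 5.70e-06). Slc5a8, a sodium-coupled carrier of short monocarboxylates, was at 9.05 to 15.6 CPM in basal and 116 to 190 in luminal controls (3.68, SE 0.26, adjusted p = 4.37e-06). The iodide symporter Slc5a5, which concentrates iodide for milk, was at 5.08, 3.84 and 11.5 CPM in basal and 72.8, 47.0 and 548 CPM in luminal controls (5.02, SE 1.0, adjusted p = 0.00272). Replicate 3 was the highest of each group. The multivitamin carrier Slc5a6 differed less, at 26.9 to 29.5 against 33.1 to 65.7 CPM (0.77, adjusted p = 0.0348).

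**Figure D2:**
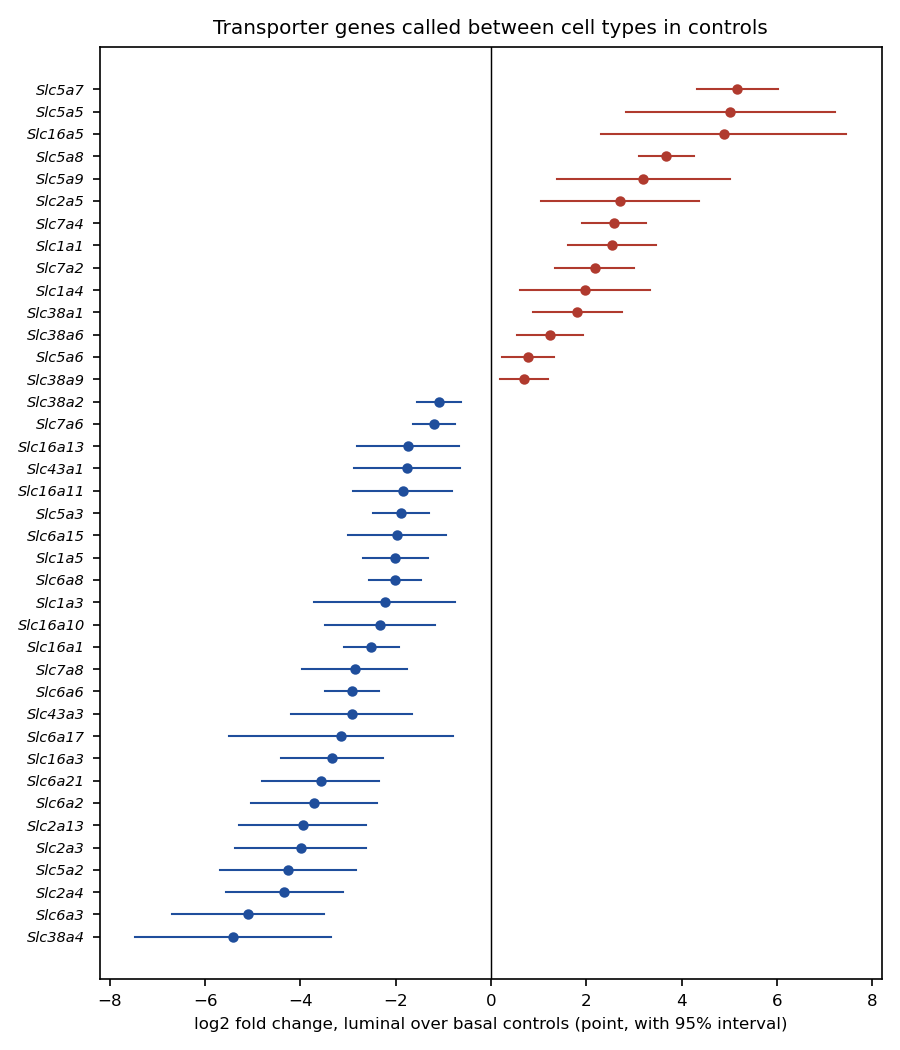
Log2 fold change, luminal over basal controls, of the 39 called transporter genes, with 95% intervals (edgeR); 14 lie to the right (higher in luminal) and 25 to the left (higher in basal). Slc5a7 is the highest of the luminal genes at 5.17 and Slc38a4 the lowest at -5.42.

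Carriers of glutamine and its neutral relatives were split between the cell types: of 9 tested Slc38 genes 3 were higher in luminal and 2 in basal cells. Slc1a5 (ASCT2), which exchanges glutamine and other neutral amino acids, was at 211, 252 and 217 CPM in basal and 63.8, 60.5 and 44.8 CPM in luminal controls (log2 fold change -2.01, SE 0.31, adjusted p = 0.000531). Slc38a2 was at 1473, 1602 and 1251 CPM against 680, 656 and 690 CPM (-1.09, SE 0.21, adjusted p = 0.00214). Slc38a4 was low in both, with 145 counts over the basal and 3 over the luminal controls; the ratio of summed counts per library size was 48.0 (95% interval 16.1 to 235, counting error only). The near relative Slc38a1 (SNAT1) went the other way, at 20.7, 9.65 and 37.7 CPM in basal and 77.8, 56.3 and 105 CPM in luminal controls (1.81, SE 0.42, adjusted p = 0.00679), as did Slc38a6 (1.24) and the lysosomal arginine sensor Slc38a9 (0.69), both called. Slc38a10 (63.0 to 121 against 87.5 to 136 CPM), the lysosomal glutamine carrier Slc38a7 (10.2 to 13.9 against 12.9 to 16.4 CPM) and the glutamine carrier Slc38a3 (2.03 to 2.90 against 1.51 to 7.77 CPM) were not called.

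Among the 5 tested genes of Slc1, 2 were higher in each cell type. Slc1a1, a glutamate and aspartate carrier, had 4.47 to 5.82 CPM in basal and 22.6 to 42.2 in luminal controls (log2 fold change 2.54, adjusted p = 0.000824), although 31.9% of its exonic bases lie opposite another gene and the library kit does not mark strand. Slc1a4 (ASCT1), a carrier of serine, alanine and threonine, was at 7.47, 6.07 and 34.9 CPM in basal and 64.5, 41.9 and 83.3 CPM in luminal controls (1.97, adjusted p = 0.0308). Higher in basal cells was the glutamate carrier Slc1a3, at 12.1 to 15.9 against 0.74 to 5.71 CPM (-2.23, adjusted p = 0.0255). Slc1a2 (GLT-1) was at 0.65 to 3.04 CPM in basal and 0.60 to 1.39 in luminal controls and was not called.

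Of 4 tested genes grouped with the cationic carriers 2 were called higher in luminal cells, and of 5 tested light chains 2 were called higher in basal cells. Slc7a2, which carries arginine and lysine, was at 48.7 to 77.7 CPM in basal and 236 to 396 in luminal controls (log2 fold change 2.18, adjusted p = 0.00112), and Slc7a4 at 2.12 to 3.63 against 15.2 to 22.5 CPM (2.58, adjusted p = 7.65e-05; 13.3% of its exonic bases lie opposite another gene). Of the light chains, the neutral amino acid exchanger Slc7a8 (LAT2) was higher in basal cells, at 44.1, 16.3 and 86.4 against 7.11, 5.55 and 7.54 CPM (-2.86, adjusted p = 0.0012), and so was Slc7a6 (-1.20, adjusted p = 0.000968). Slc7a7, its relative in the exchange of cationic for neutral amino acids, had 3.97 to 13.5 CPM in basal and 9.65 to 11.5 in luminal controls and was not called.

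Slc7a5, Slc7a1 and Slc7a11 missed the threshold without the replicate number in the model and passed it with the block. Slc7a5 was at 256, 264 and 699 CPM in basal and 71.7, 63.3 and 240 CPM in luminal controls: the luminal value was the lower at each replicate number, and the groups did not overlap. Its log2 fold change was -1.70 (SE 0.66, adjusted p = 0.0694), or -1.81 with the block (adjusted p = 1.74e-05). The arginine carrier Slc7a1 moved from -1.28 (adjusted p = 0.212) to -1.35 (adjusted p = 3.25e-05) and the cystine exchanger Slc7a11 (xCT) from -1.86 (adjusted p = 0.286) to -2.29 (adjusted p = 0.00116). The glycine carrier Slc6a9, at 16.1, 20.5 and 54.2 against 5.15, 9.25 and 29.6 CPM, was a further such gene (-1.05, adjusted p = 0.224; -1.15 with the block, adjusted p = 0.014), with 27.8% of its exonic bases opposite another gene.

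In Slc6, 7 of 10 tested genes were called higher in basal cells and none in luminal cells. In Slc16, 5 of 13 were higher in basal and 1 in luminal cells (all tested genes: 16.8% higher in basal, 16.3% in luminal). Slc6a6, the taurine carrier, was at 370, 306 and 184 CPM in basal and 46.2, 32.7 and 34.9 CPM in luminal controls (log2 fold change -2.92, SE 0.26, adjusted p = 1.50e-05), and the creatine carrier Slc6a8 at 390 to 434 against 77.1 to 120 CPM (-2.02, adjusted p = 0.000106). Slc16a1 (MCT1), which carries lactate and pyruvate, was at 292 to 314 against 50.8 to 55.9 CPM (-2.51, adjusted p = 3.80e-05), and Slc16a3 (MCT4), the lactate exporter of glycolytic cells, at 15.2 to 45.4 against 1.85 to 3.42 CPM (-3.34, adjusted p = 0.000371). The low-level carriers Slc6a2 (-3.71), Slc6a17 (-3.15) and Slc6a15 (-1.97), the aromatic amino acid carrier Slc16a10 (-2.33) and Slc16a11 (-1.86) were called in the same direction, as were Slc43a3, a purine base carrier (-2.92), and Slc43a1, a large neutral amino acid carrier (-1.76). Slc16a5, the exception, was at 0.09 to 0.42 CPM in basal and 6.57 to 12 in luminal controls (4.89, adjusted p = 0.00794). The neutral amino acid carrier Slc43a2 (11.8 to 31.5 against 18.2 to 22.9 CPM) and the broad amino acid carrier Slc6a14 (0.36 to 34.0 against 4.72 to 91.8 CPM) were not called.

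Knockout-labelled basal cells had 3 transporter genes called against basal controls, all higher: the choline carrier Slc5a7, the noradrenaline carrier Slc6a2 and the amino acid exchanger Slc7a6. They are 4.41% of the tested members; over all tested genes 0.671% were called, 0.611% higher and 0.0604% lower. With library size alone as the scaling, 1 member was called higher and 1 lower (Slc5a7, adjusted p = 0.0451; Slc38a1, 0.0488). The members' median log2 fold change was 0.03 (all tested genes: -0.01) and its median size, regardless of sign, 0.48 (0.21). The values over all tested genes were not matched to the levels of the members. Groups did not overlap for 9 members that were higher (8.15% of all tested genes) and 4 that were lower (4.21%), 12.4% of all tested genes in either direction. An unadjusted p under 0.05 was reached by 10 members, where 8.88% of all tested genes reached it.

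Slc5a7 (RefSeq on GRCm38, chromosome 17, 54273590 to 54299038) was at 2.49, 2.23 and 2.22 CPM in basal controls and at 11.3, 13.9 and 9.99 CPM in basal knockout-labelled libraries. All 3 knockout-labelled values lay above all 3 controls, and the rise was 2.34 on the log2 scale (SE 0.36, adjusted p = 0.0165). They remained below the luminal control range of 47.6 to 119 CPM. Slc6a2 (chromosome 8, 92960470 to 93001667) had 3.63, 2.50 and 1.85 CPM in the controls against 10.2, 22.1 and 14.6 CPM in knockout-labelled libraries, again without overlap (2.56, SE 0.46, adjusted p = 0.0366). Slc7a6 (chromosome 8, 106168219 to 106198714), the light chain y+LAT2 that exports cationic amino acids in exchange for neutral ones, was the most abundant of these genes, at 70.2, 63.6 and 80.2 CPM in controls and 126, 128 and 187 CPM in knockout-labelled libraries (1.04, SE 0.20, adjusted p = 0.0462). It too showed no overlap. Slc7a6os, the adjacent gene, was at 92.4 to 114 CPM in basal controls and 80.7 to 147 in knockout-labelled libraries.

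These 3 calls sit near the threshold. Leaving out single libraries of the comparison gave adjusted p between 0.0387 and 0.102 for Slc5a7, which was kept only without replicate 3 of either group, between 0.0581 and 0.188 for Slc6a2, and between 0.0506 and 0.221 for Slc7a6, while the log2 fold changes stayed positive. Without basal control replicate 3, the library low in Acta2, Slc5a7 had an adjusted p of 0.0452, Slc6a2 of 0.0678 and Slc7a6 of 0.0506. Without basal knockout replicate 3 these were 0.0387, 0.0763 and 0.13.

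The next lowest p belonged to the glutamine carrier Slc38a1 (chromosome 15, 96571418 to 96643438). It was at 20.7, 9.65 and 37.7 CPM in basal controls and at 3.65, 4.21 and 6.63 CPM in knockout-labelled libraries; the groups did not overlap, but the gene missed the threshold (log2 fold change -2.23, SE 0.45, adjusted p = 0.0518). Slc6a21 (-1.90, adjusted p = 0.119) and Slc38a3 (2.02, adjusted p = 0.292) followed. The glucose carriers gave no call: Slc2a1 was at 428, 327 and 638 CPM in controls and 725, 379 and 821 CPM in knockout-labelled basal cells (0.47, SE 0.41, adjusted p = 0.926), and Slc2a4, at 53.6, 54.2 and 12.7 against 43.5, 58.6 and 21.5 CPM, had a log2 fold change of 0.04 (SE 0.47). Slc6a6, at 184 to 370 against 382 to 530 CPM, and Slc5a8, at 9.05 to 15.6 against 16.3 to 22.9 CPM, showed no overlap and no call (0.69, adjusted p = 0.319; 0.65, adjusted p = 0.368).

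Markers of other cells also differed between these groups. Here a marker counts as at 0 when it has no counts in all 3 libraries of a group. Summed fibroblast markers (10 genes, none at 0) were 509 to 663 CPM in basal controls and 1791 to 2902 CPM in knockout-labelled basal libraries, and 2 of the 10 were called higher (Pdgfra, 2.41; Dpp4, 2.85). Pericyte markers (6 genes, none at 0) were 36.2 to 53.0 and 57.8 to 138 CPM, with none called, and nerve and Schwann cell markers (5 genes, none at 0) were 156 to 197 and 216 to 360 CPM, with 1 called higher. Luminal markers (12 genes, none at 0) were 1277 to 1672 and 1607 to 2630 CPM, with 1 called higher, Foxa1 (2.01), at 8.30, 6.52 and 13.9 CPM in controls and 46.1, 29.1 and 40.8 CPM in knockout-labelled libraries. Lower without overlap were macrophage and dendritic cell markers (7 genes, none at 0), at 68.6 to 85.7 CPM in controls and 31.4 to 65.1 CPM in knockout-labelled libraries, T and B cell markers (7 genes, Ms4a1 at 0 in controls), at 9.74 to 11.3 and 2.93 to 4.36 CPM, and red blood cell markers (4 genes), below 1 CPM in both; none was called in the first 2 lists. Salivary gland genes (12 genes, Muc19 at 0 in knockout-labelled libraries) were 1023 to 4222 CPM in controls and 204 to 4992 CPM in knockout-labelled libraries. These ranges overlap, and 1 of 11 tested was called lower and none higher. The part of these cells in the rises of Slc5a7, Slc6a2 and Slc7a6 was not tested.

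**Figure D3:**
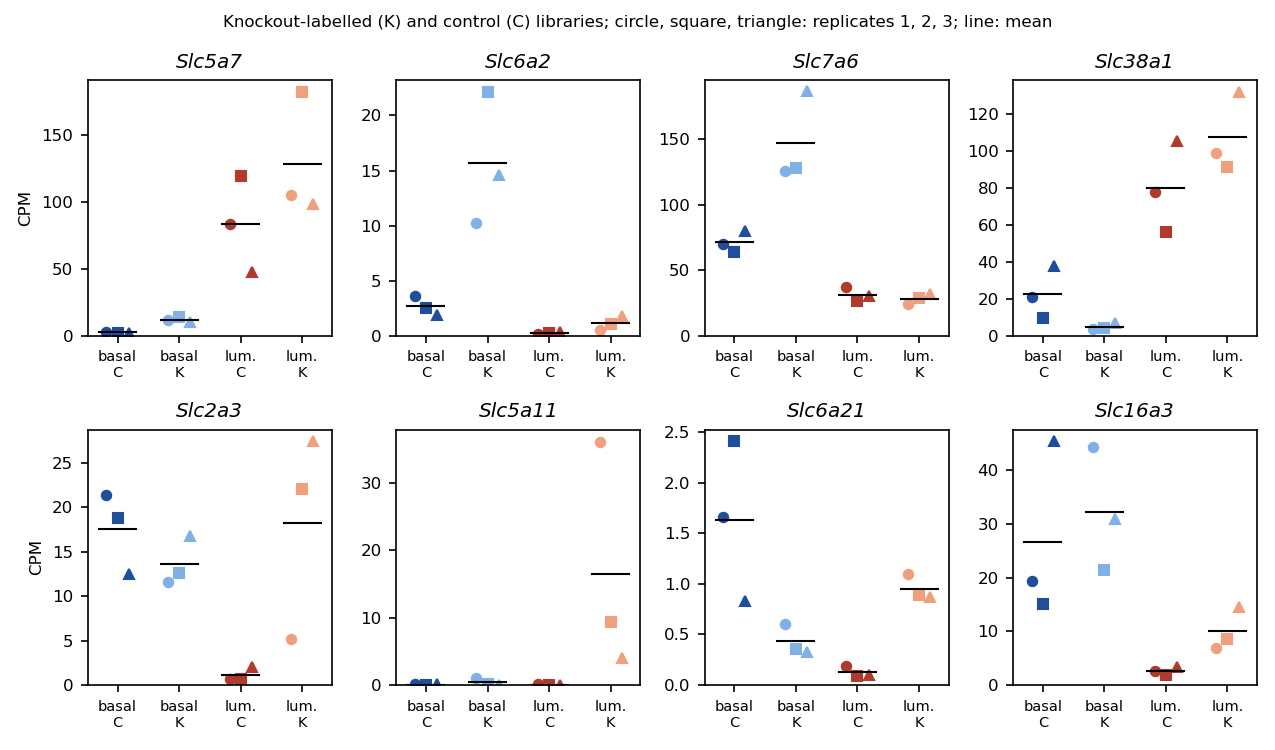
CPM of the transporter genes called in a knockout comparison and of Slc38a1 and Slc16a3, by group (C, control; K, knockout-labelled; lum., luminal); each symbol is a library, its shape the replicate number, and bars are means. Each panel has its own axis from 0; the knockout-labelled libraries lie above their controls for Slc5a7, Slc6a2 and Slc7a6 in basal cells and for Slc2a3, Slc5a11 and Slc6a21 in luminal cells.

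Knockout-labelled luminal cells also had 3 transporter genes called, all higher: the glucose carrier Slc2a3, the myo-inositol carrier Slc5a11 and Slc6a21. This is 4.41% of the tested members, beside 3.03% of all tested genes called (2.21% higher and 0.819% lower), a share near the background. The median log2 fold change of the members was 0.20, against -0.03 over all tested genes, and its median size, regardless of sign, 0.53 against 0.30, again with no matching for level. Groups did not overlap for 9 members that were higher (13.1% of all tested genes) and 10 that were lower (12.3%), 25.4% of all tested genes in either direction. An unadjusted p under 0.05 was reached by 14 members, where 17.2% of all tested genes reached it.

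Slc2a3 (chromosome 6, 122727809 to 122802363) was at 0.65, 0.65 and 2.01 CPM in luminal controls and at 5.19, 22.1 and 27.4 CPM in luminal knockout-labelled libraries. Every knockout-labelled value was above every control, and 2 of the 3 were above the basal control range of 12.5 to 21.4 CPM (log2 fold change 4.05, SE 0.63, adjusted p = 0.00817). The call held when any single library was left out, with adjusted p between 0.00188 and 0.0469 (0.0454 without luminal control replicate 2). With only the 6 luminal libraries in the fit the adjusted p was 0.0565.

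Slc5a11 (SMIT2; chromosome 7, 123214594 to 123274388), a sodium-coupled myo-inositol carrier, was close to absent elsewhere: 0.19, 0 and 0 CPM in luminal controls and at most 1.11 CPM in any basal library. In luminal knockout-labelled libraries it was at 36.1, 9.40 and 4.07 CPM. The controls held 2 counts together and the knockout-labelled libraries 528, a ratio per library size of 229 with an exact 95% interval of 63.2 to 1900 that covers counting error only (edgeR adjusted p = 0.0147). The 3 knockout-labelled values differ widely among themselves: replicate 1 held 362 of the 528 counts, and without it the ratio was 99.8 (27.2 to 831). Both control counts came from replicate 1. Without luminal control replicate 1 or 2 the adjusted p was 0.063 or 0.0719.

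Slc6a21 (chromosome 7, 45277331 to 45288996) was the scarcest of the called genes, at 0.19, 0.09 and 0.10 CPM in controls and 1.10, 0.90 and 0.87 CPM in knockout-labelled luminal libraries, or 4 against 34 counts (log2 fold change 2.79, SE 0.58, adjusted p = 0.025). Leaving out any 1 of the 6 luminal libraries gave adjusted p between 0.06 and 0.125. In basal cells the same gene was at 1.66, 2.41 and 0.83 CPM in controls and 0.61, 0.36 and 0.33 CPM in knockout-labelled libraries, lower in each. The difference between the basal and luminal effects was itself called for Slc6a21 (log2 difference -4.69, SE 0.75, adjusted p = 0.0322), the 1 member of 68 so called (0.275% of all tested genes, 0.0939% in this direction and 0.181% in the other). An unadjusted p under 0.05 for this difference was reached by 10 members, beside 9.84% of all tested genes. Slc2a3 was next (-4.41, SE 0.81, adjusted p = 0.0516). With replicate number as a block 3 members were called for the difference (0.711% of all tested genes): Slc6a21 (-4.73, adjusted p = 0.028), Slc38a1 (-2.58, adjusted p = 0.0212) and Slc2a3 (-4.45, adjusted p = 0.0442).

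**Figure D4:**
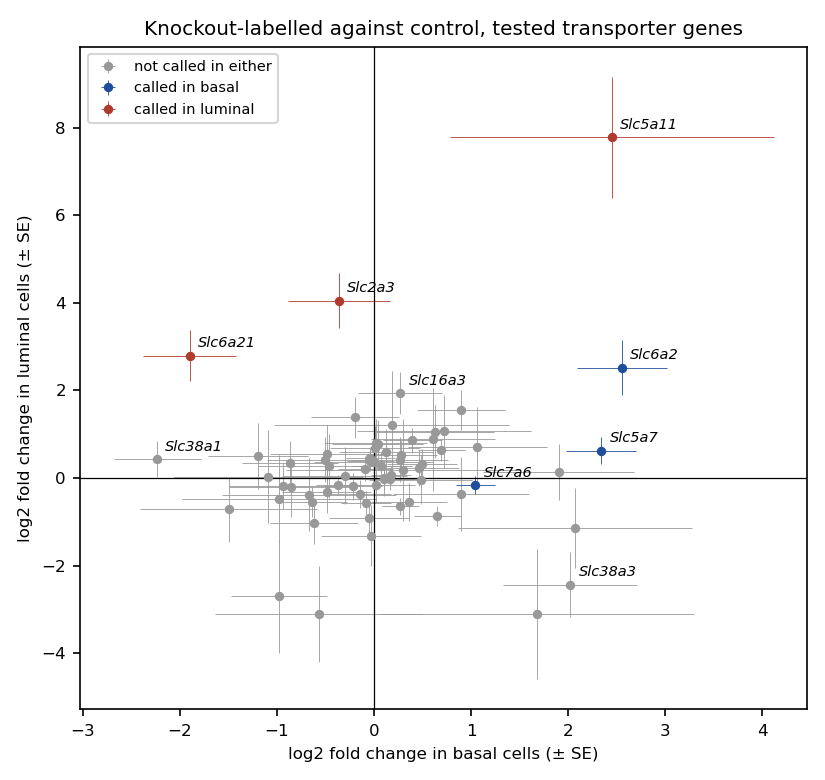
Log2 fold change, knockout-labelled over control, in basal (horizontal) and luminal cells (vertical) for the 68 tested transporter genes, with bars of 1 SE; blue points are called in basal and red points in luminal cells. No point is called in both; Slc6a21 lies at -1.90 and 2.79 and Slc2a3 at -0.36 and 4.05.

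Libraries of the same number also deviated together in the luminal comparison (correlations 0.356, 0.301 and 0.535). With replicate number as a block, 7 members were called, where the share of all tested genes called was 7.36%, up from 3.03%. The block added the lactate exporter Slc16a3, at 2.62, 1.85 and 3.42 CPM in controls and 6.98, 8.5 and 14.5 CPM in knockout-labelled libraries (log2 fold change 1.93; adjusted p = 0.0534 without and 0.013 with the block), and Slc7a4, at 22.5, 16.6 and 15.2 against 29.9, 38 and 30.4 CPM (0.86, adjusted p = 0.129; 0.87 with the block, adjusted p = 0.0375). Of the genes it added that were lower, the monocarboxylate carrier Slc5a8 was at 161, 190 and 116 against 84.5, 75.1 and 95.7 CPM (-0.87, adjusted p = 0.0741; -0.83, adjusted p = 0.0439). Slc16a3, Slc7a4 and Slc5a8 did not overlap between the groups.

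Abundant luminal carriers gave no call. Slc5a5 was at 72.8, 47.0 and 548 CPM in controls and 217, 474 and 704 CPM in knockout-labelled luminal libraries, higher at each replicate number but with overlapping groups (log2 fold change 1.06, SE 0.84, adjusted p = 0.574). Slc1a4 was at 64.5, 41.9 and 83.3 against 114, 78.9 and 203 CPM (1.06, SE 0.60, adjusted p = 0.404), and Slc7a2 at 283, 236 and 396 against 285, 595 and 428 CPM (0.52, SE 0.36, adjusted p = 0.517). Slc2a1, at 289, 148 and 380 against 281, 233 and 444 CPM, had a log2 fold change of 0.23 (95% interval -0.66 to 1.12) and Slc38a2 of 0.07 (95% interval -0.38 to 0.53). The amine carrier Slc6a2, called in basal cells, was at 0.09, 0.19 and 0.30 against 0.50, 1.07 and 1.8 CPM (2.52, adjusted p = 0.0545).

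Basal markers in the luminal libraries (10 genes, none at 0) summed to 151 to 765 CPM in controls and 390 to 1069 CPM in knockout-labelled libraries, ranges that overlap. The median log2 fold change of the 10 was -0.28, against -0.03 over all tested genes. Only Trp63 was called, and it was higher (2.80). It was at 2.03 to 15.7 CPM in controls and 27.5 to 71.8 CPM in knockout-labelled libraries, where basal libraries had 272 to 410 CPM. Salivary gland genes (12 genes, none at 0) ranged from 11460 to 123800 CPM in luminal controls and from 21860 to 90560 CPM in knockout-labelled luminal libraries, with 3 called higher and 1 lower. Macrophage and dendritic cell markers (7 genes, none at 0) were 24.4 to 56.9 and 17.5 to 37.8 CPM, and fibroblast markers 77.3 to 412 and 133 to 375 CPM, with none called in either list. Lower without overlap were endothelial markers (8 genes, none at 0), at 98.8 to 168 CPM in controls and 70.2 to 86.0 CPM in knockout-labelled libraries, and adipocyte markers (7 genes, Adipoq at 0 in both groups and Cfd in controls), at 67.7 to 121 and 39.1 to 62.5 CPM, again with none called. Red blood cell markers were at 1.85 to 3.65 and 0.53 to 1.5 CPM. Nerve and Schwann cell markers were at 269 to 305 and 170 to 322 CPM, with 1 of 4 tested called lower. With TMM factors computed without the salivary genes the same count of members, 3, was called in each cell type. The part of these cells in the luminal calls was not tested.

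Promoter sequence was read for 2 of the called genes that rose from low levels, to show the sequence around a listed start site of each. The windows run from 250 bases before to 4 bases after a RefSeq start site (GRCm38.p6) and were searched on both strands for the forkhead motif TGTTTAC. The Slc5a7 window is chr17:54299031-54299284 on the minus strand and the Slc5a11 window chr7:123214616-123214869 on the plus strand, which lies inside the RefSeq span of the gene.
Slc5a7: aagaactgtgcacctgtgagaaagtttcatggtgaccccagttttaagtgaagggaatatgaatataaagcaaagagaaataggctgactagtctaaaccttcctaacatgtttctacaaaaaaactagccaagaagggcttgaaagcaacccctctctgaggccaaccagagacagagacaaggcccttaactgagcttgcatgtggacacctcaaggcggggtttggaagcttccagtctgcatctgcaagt
Slc5a11: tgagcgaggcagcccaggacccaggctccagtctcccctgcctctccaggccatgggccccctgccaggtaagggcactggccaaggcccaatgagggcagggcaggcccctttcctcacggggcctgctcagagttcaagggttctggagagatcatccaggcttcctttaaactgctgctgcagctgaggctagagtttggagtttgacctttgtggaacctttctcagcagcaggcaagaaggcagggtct
Both are printed in lower case because neither holds these letters, which says nothing about the binding of a factor. Over the 300-base windows of all promoters, 3.65% of 32851 hold the motif; of the 65 members with a promoter, Slc5a6 and Slc7a11 do.

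Some carriers had their highest or lowest level in replicate 3 of all 4 groups, at shares near those of all genes. In 11 of the 68 tested members (16.2%; all tested genes: 11.3%) replicate 3 was the highest library of every group, and in 5 (7.35%; all tested genes: 9.97%) the lowest. The 11 were the exchangers Slc7a5 and Slc7a11, the cationic carriers Slc7a1 and Slc7a3, Slc1a4, Slc38a1, Slc6a9, Slc6a17, Slc5a5, Slc5a6 and the glucose carrier Slc2a1. Replicates have no order and the labels do not say what a number stands for, so this is a description with no test.

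Slc7a11, which imports cystine, was among them. It was at 18.9, 14.6 and 81.5 CPM in basal controls, 28.8, 11.5 and 90.4 in basal knockout-labelled, 2.71, 2.40 and 26.6 in luminal controls and 5.88, 3.49 and 63.1 in luminal knockout-labelled libraries. Replicate 3 was thus 4.87, 4.49, 10.4 and 13.5 times the mean of the other two in these groups. Slc7a5 stood at 2.69, 2.68, 3.56 and 2.75 times, Slc7a1 at 3.12, 3.19, 3.71 and 3.11 times and Slc1a4 at 5.16, 1.87, 1.57 and 2.11 times. The glucose carrier Slc2a1 differed less, by 1.49 to 1.74 times. Slc2a8, Slc38a6, Slc38a9, Slc38a10 and Slc5a7 were lowest in replicate 3 of every group, at 0.469 to 0.939 times the mean of the others. Slc38a2 and Slc1a5 followed neither pattern.

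The amino acid response list holds ATF4, known targets of it and sensors of amino acids. Of its 16 genes, 9 were highest in replicate 3 of all 4 groups (11.3% of all tested genes). Only Atf3 was lowest there in every group (9.97% of all tested genes). Among the 9 were the pseudokinase Trib3 (3.27 to 4.32 times the mean of the others), asparagine synthetase Asns (1.59 to 4.67), the mitochondrial folate enzyme Mthfd2 (3.79 to 4.85), the serine synthesis enzyme Psat1 (2.98 to 6.93) and Chac1, which degrades glutathione (2.30 to 5.17). The heavy chain Slc3a2, partner of Slc7a5 and Slc7a11, was 1.29 to 1.65 times higher. Atf4 mRNA itself was at 0.825 to 1.17 times. In the other lists, 4 of 21 glycolysis genes, 3 of 11 glucose uptake regulators, 3 of 10 glutamine genes, 2 of 13 genes of amino acid sensing and 2 of 6 lactose genes were highest in replicate 3 of every group.

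**Figure D5:**
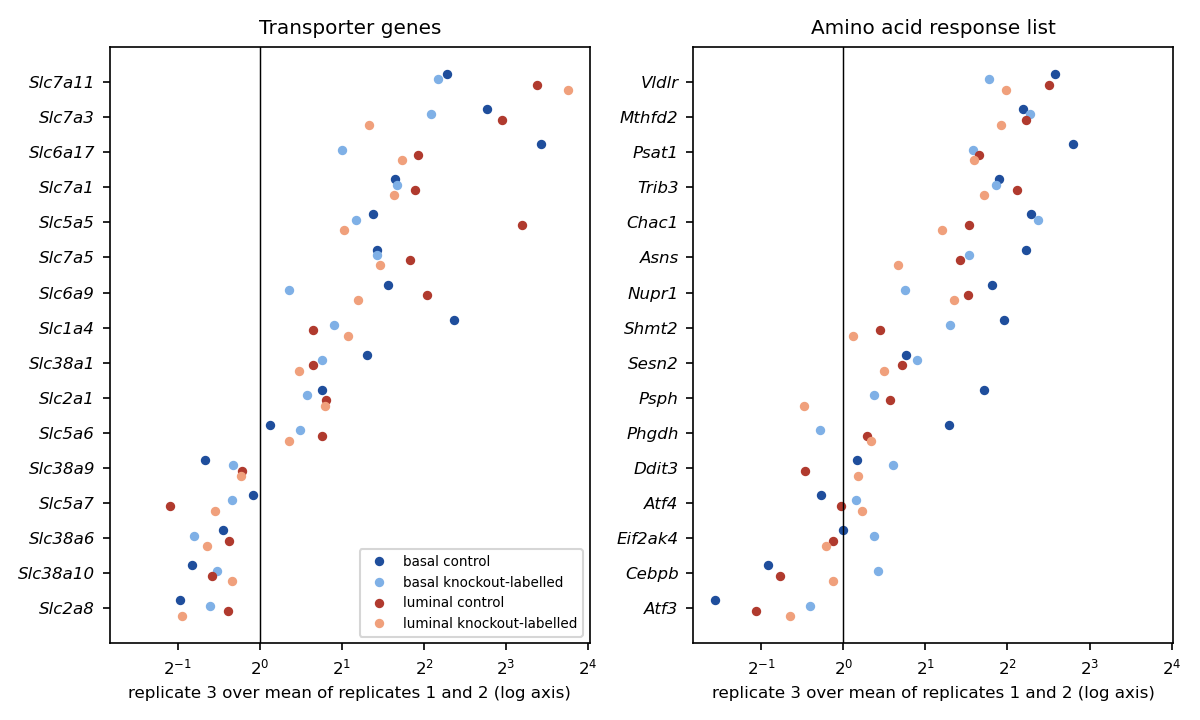
Ratio of replicate 3 to the mean of replicates 1 and 2 (log axis) in each of the 4 groups, for the 16 transporter genes whose replicate 3 was highest or lowest in every group (left) and for the 16 genes of the amino acid response list (right). Slc7a11 lies between 4.49 and 13.5 in the 4 groups, and Vldlr, Mthfd2 and Trib3 lie above 3 in all of them.

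Of the 11 genes 8 have a promoter entry, and the promoters of 2 of these 8 hold the letters TGATGNAA, the core of the amino acid response element to which ATF4 and its partners bind. These 2 are shown for that reason. The motif was searched on both strands and chosen after the pattern was seen; matches are in capitals and none overlaps a match of TGTTTAC. The Slc7a11 window, chr3:50443610-50443863 on the minus strand, belongs to a start site inside the RefSeq gene span (chromosome 3, 50364936 to 50499087), and that of Slc1a4 is chr11:20332710-20332963 on the minus strand.
Slc7a11: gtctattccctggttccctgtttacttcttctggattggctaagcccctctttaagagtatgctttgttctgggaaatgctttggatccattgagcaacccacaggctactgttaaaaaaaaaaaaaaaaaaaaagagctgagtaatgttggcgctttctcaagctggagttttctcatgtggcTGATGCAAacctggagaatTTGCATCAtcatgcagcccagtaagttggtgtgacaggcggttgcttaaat
Slc1a4: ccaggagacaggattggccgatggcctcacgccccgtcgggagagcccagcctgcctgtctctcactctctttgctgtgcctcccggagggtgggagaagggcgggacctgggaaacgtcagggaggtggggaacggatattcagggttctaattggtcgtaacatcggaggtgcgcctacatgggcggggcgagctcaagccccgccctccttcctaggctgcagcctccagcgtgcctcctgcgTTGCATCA
Slc7a11 holds the motif on each strand, beginning 66 and 47 bases before the start site, and Slc1a4 holds it 4 bases before, across the start site itself. Among all promoters 3.97% of 32851 hold a match (4.51% of genes), and among members 4 of 65: these and Slc6a21 and Slc7a7, of which the last 2 did not share the replicate pattern. A match is a description of sequence, not of binding.

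Other genes of transport and fuel use gave few calls between knockout-labelled and control libraries. In basal cells none of the 7 lists had a called gene, where 0.671% of all tested genes were called. The lowest p in each belonged to Slc3a1 (0.78, adjusted p = 0.872) and Slc3a2 (0.29, 0.953) among partner subunits, Arrdc4 (0.66, 0.188) and Myc (0.34, 0.871) among glucose uptake regulators, Aldoc (0.92, 0.22) and Pdk4 (0.74, 0.603) in glycolysis and Ugp2 (0.36, 0.485) and Lalba (-1.14, 0.604) in lactose synthesis. They were Nupr1 (1.19, 0.707) and Eif2ak4 (-0.24, 0.787) in the amino acid response, Rragb (-1.74, 0.337) and Sesn1 (0.39, 0.628) in amino acid sensing and Glul (0.77, 0.448) and Gpt (0.34, 0.902) in glutamine metabolism, each pair giving the log2 fold change and the edgeR adjusted p.

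In luminal cells 1 of 21 glycolysis genes was called, the aldolase Aldoa, at 269, 179 and 309 CPM in controls and 380, 543 and 675 CPM in knockout-labelled libraries (log2 fold change 1.08, SE 0.26, adjusted p = 0.0475). One of 10 glutamine genes was called, the aspartate aminotransferase Got1, at 67.6, 32.4 and 72.0 against 121, 146 and 183 CPM (1.39, SE 0.31, adjusted p = 0.0375). Neither gene overlapped between the groups, as was so for 25.4% of all tested genes (13.1% higher). Over all tested genes 3.03% were called in luminal cells, 2.21% higher, so these few calls are no result about the lists. No gene was called among partner subunits (lowest p: Emb, 0.86, adjusted p = 0.17; Bsg, 0.40, 0.263), glucose uptake regulators (Hif1a, 1.43, 0.15; Tbc1d1, 0.84, 0.155), lactose synthesis (Lalba, -1.42, 0.0751; Slc35a2, 0.65, 0.11), the amino acid response (Eif2ak4, -0.47, 0.122; Cebpb, -0.61, 0.313) or amino acid sensing (Deptor, 1.25, 0.0855; Slc36a4, 0.49, 0.326).

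Between the cell types of the controls, the 2 chaperones of Slc16 carriers differed in opposite directions. Emb was at 157 to 175 CPM in basal and 5.64 to 11.5 in luminal cells (log2 fold change -4.42, edgeR adjusted p = 6.50e-06). Bsg was higher in luminal cells (0.71, adjusted p = 0.00929). Of 21 glycolysis genes 5 were higher in basal (Pfkp, Ldha, Pgam1, Aldoa and Pfkl, -1.35 to -0.63) and 2 in luminal cells (Aldoc, 3.08; Pfkfb3, 1.43). Of 11 glucose uptake regulators 3 were higher in luminal cells, among them Txnip (1.49) and Arrdc4 (1.41), which remove glucose carriers from the membrane, and Epas1 was higher in basal cells (-2.41). Lactose synthesis had 2 of 6 higher in luminal cells, the milk protein Lalba (4.48) and B4galt1 (1.33), which together form lactose synthase.

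Glutamine metabolism was divided, with glutamine synthetase Glul (2.54) and Got1 (1.40) higher in luminal cells and Gpt2 (-2.05) and Gclm (-1.30) among those higher in basal cells, of 10 genes. Of the 16 amino acid response genes 1 was higher in luminal cells, Nupr1 (4.19). Among 13 genes of amino acid sensing at mTORC1, Flcn (0.63) was higher in luminal and Rraga (-0.69), Slc36a4 (-0.94) and Ddit4 (-1.18) were higher in basal cells. Over all tested genes 16.3% were called higher in luminal and 16.8% higher in basal cells.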

How the data were processed

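Whole-number read counts per gene were deposited by the authors for 27179 Entrez genes in 12 libraries, with no normalization. Per the labels' protocols, extraction used RNeasy and library preparation TruSeq RNA v2, a kit that does not mark strand. Per the submitters' processing notes, the tools included CASAVA 1.8.2 and featureCounts, with mm10 as the build; aligner and gene models: not given in the sources used here. Counts in the 12 library tables and the series table differed in 0 values. All libraries entered 1 edgeR 4.0.16 model (R 4.3.3) of 4 group means with TMM factors, the default expression filter by group and robust quasi-likelihood F tests on 8 residual degrees of freedom, adjusted by Benjamini-Hochberg over 14903 genes that held at least 99.85% of each library's counts. The common biological coefficient of variation was 32.6%. Standard errors were derived from F as |log2 fold change|/√F.

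The 51 named genes were those called in a knockout comparison or in the difference of effects, the 6 with the lowest p in each knockout comparison, the 10 largest called folds each way between cell types with an average log2 CPM of at least 1, the 5 most abundant per length in each family, and a set of 25. Members and lists were chosen with earlier results of these data known. Replicate numbers are shared between groups and were checked by correlating deviations from group means at the same number: 0.356, 0.301 and 0.535 between the luminal groups, 0.308, 0.425 and 0.473 between the control cell types, and -0.087, 0.358 and 0.13 between the basal groups, so the block is printed beside the first pair of comparisons. Within groups, replicates differed by 11.8 to 137 times sampling noise (chi-square per degree of freedom). The fit was first tested on simulated data. Counts of called members and the fold changes of named genes were recomputed, where a gene passed the filter of that fit, with DESeq2 1.42.0, with limma-voom (limma 3.58.1), under different scaling factors and low-count filters, with fewer libraries and with the block. Gene positions and promoters are RefSeq's (GRCm38.p6); exon overlaps were computed from the GENCODE mouse annotation. Intervals of count ratios cover counting error only. Some genes that the rules would name are not reported here.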

Additional observations from a re-analysis of the deposited data

Results flagged for a closer look

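Slc6a21 had log2 fold changes of opposite sign in the 2 cell types, -1.90 in basal and 2.79 in luminal cells. The edgeR test of the difference called it: the basal minus the luminal log2 effect was -4.69 (SE 0.75, adjusted p = 0.0322). The basal change by itself was not called, nor was it with the replicate block (edgeR adjusted p = 0.0745). All 3 knockout-labelled libraries were below the 3 controls in basal cells and above them in luminal cells. The gene was scarce, with at most 2.41 CPM in any library, and luminal controls held 4 counts together. Leaving out 1 library at a time gave adjusted p between 0.0136 and 0.0995 and kept the call in 2 of 12 fits, those without replicate 3 of the basal or of the luminal controls. The call was also lost by limma-voom (adjusted p = 0.0672). In edgeR fits without replicate 1, 2 or 3 of all groups the adjusted p was 0.433, 0.633 or 0.0691. Across all alternatives the call was kept in 8 of 22.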

How the results depend on the processing

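For basal cells, leaving out 1 library at a time gave between 0 and 1 called transporter genes in place of 3, and the planned other settings gave between 2 and 4. In luminal cells leaving out 1 library gave between 1 and 6 in place of 3, DESeq2 called 9 and the replicate block 7. The difference between the effects, with 1 called gene, gave 2 with library size alone, 2 with no low-count filter, 0 with a minimum CPM of 1 in every library of a group, 6 by DESeq2, 0 by limma-voom, 3 with the replicate block and between 0 and 4 without 1 library. Between cell types the count was 39 and stayed between 32 and 47 under the planned settings, the lowest being the fit of the 6 control libraries alone. Chosen after seeing the data, edgeR fits without replicate 1 of all groups called 0, 0, 0 and 25 genes in the basal, luminal, difference and cell type comparisons, those without replicate 2 called 0, 0, 0 and 27, and those without replicate 3 called 6, 6, 0 and 42. Calls over all tested genes moved with them: 3, 12, 1 and 1721 without replicate 1, 3, 7, 1 and 2649 without replicate 2, and 268, 703, 39 and 5503 without replicate 3; the cause was not tested. In no comparison did the replicate block lose a call. In basal cells, correlations at the same replicate number were mixed, at -0.087, 0.358 and 0.13. There the replicate block called 4 genes, with Slc38a1 added (edgeR adjusted p = 0.00927). The block gave adjusted p of 0.00444 for Slc5a7, 0.0335 for Slc6a2 and 0.0209 for Slc7a6. Of 3910 values of single genes under these settings 106 lost and 60 gained a call, and 0 that were called reversed. Among those called in neither fit, 259 changed sign. A further 4 values, outside the 3910, had no adjusted p from DESeq2. Over all tested genes the basal comparison called 100 genes, and 59 with library size alone, 151 with the basal libraries alone, 236 with the block and 414 by DESeq2; the luminal comparison called 451, and 199 with the luminal libraries alone, 1097 with the block and 1092 by DESeq2; the difference called 41, and 22 by limma-voom, 106 with the block and 360 by DESeq2.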
